A study of Homo sapiens with 24 samples.

Results

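The genes that write, copy and remove methyl groups on cytosine in DNA are described here in leukemia cells exposed to a pair of adenosine analogs. The set was taken by symbol from the deposited table of read counts and holds 7 of its 23354 genes, namely DNMT1, DNMT3A, DNMT3B, UHRF1, TET1, TET2 and TET3. MV4-11 and KG-1a are established human acute myeloid leukemia (AML) lines, both labelled wild type (WT) and grown in Iscove's medium with 10% fetal bovine serum. Cells were left without treatment or received 8-chloro-adenosine (8CA) or 8-amino-adenosine (8AA), each at 1 µM, which differ in carrying a chlorine or an amino group on the adenine base. Total RNA was sequenced after 8 h and 24 h, which gives 12 groups of 2 libraries (replicates A and B). The hours of the untreated groups stand in the sample titles only. No source says that A and B came from separate cultures, so the p-values measure the spread between these libraries, which may be technical, and each line stands for itself as 1 model of AML.

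DNA methyltransferases place a methyl group on the carbon of cytosine, mostly where a G follows it (CpG), and take that group from S-adenosylmethionine (SAM). DNMT3A and DNMT3B methylate new sites, whereas UHRF1 binds CpG sites that are methylated on the old strand only and brings DNMT1 there, so that the pattern is copied after each round of DNA replication. TET1, TET2 and TET3 oxidise the methyl group, after which it is lost by dilution or by base excision repair. DNMT3A and TET2 are among the genes most often mutated in AML, and DNMT1 is the target of the drugs azacitidine and decitabine, which are used to treat it.

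UHRF1 and DNMT1 act together and both were measured at a high level, and the bases just before their starts are shown because the matches of a cell cycle motif differed between them. The sequences are from RefSeq on build GRCh38.p14, end 1 base before the annotated start and read 5′ to 3′ on the strand of the gene. Capitals mark the letters of TTTCCCGC, a form of the binding motif of E2F factors (activators of S phase genes), read on the other strand.
UHRF1, chr19:4909391-4909500, plus strand: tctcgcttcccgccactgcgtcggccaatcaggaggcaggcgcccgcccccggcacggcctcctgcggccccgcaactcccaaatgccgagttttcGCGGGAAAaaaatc
DNMT1, chr19:10194954-10195063, minus strand: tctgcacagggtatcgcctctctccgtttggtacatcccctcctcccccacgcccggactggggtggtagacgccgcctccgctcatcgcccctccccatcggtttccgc
All 7 genes were found in the RefSeq table, with 18 promoters among them. The motifs searched were TTTCCCGC, TTTCGCGC, TTTGCCGC and TTTGGCGC, on both strands of the 250 bases before each start. Of all 35116 promoters in the table, 979 (2.79%) held at least 1 of these 8-letter strings. UHRF1 held one in 2 of its 3 promoters, at position -14 in the one shown and at -160 in the second, and none of the other 15 promoters held one. CpG pairs numbered 28, 32 and 41 before the starts of UHRF1 and 21 before that of DNMT1, against a median of 11 over all promoters. The other members held 12 to 33 (DNMT3A), 3 (DNMT3B), 4 to 11 (TET1), 10 and 34 (TET2) and 37 and 27 (TET3). A match is a description of the letters and was not tested for binding.

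The libraries held 18633963 to 24520078 counts. In all 12 groups the replicates differed by more than counting noise, with a chi-square per degree of freedom over genes of 1.43 to 5.20, except for KG-1a with 8AA at 24 h, whose replicates stood further apart at 12.3. Results on that group are therefore also given with libraries left out. A fit without 1 of its 2 libraries takes the spread from the other groups, so a call kept there does not show that the replicates agree. MV4-11 carried the myeloid markers FLT3 (426 to 621 CPM, counts scaled by the size of the library), CD33 (105 to 141 CPM) and LYZ (2665 to 3773 CPM), with CD34 at no more than 0.175 CPM. KG-1a carried CD34 (325 to 629 CPM) and the pan-leukocyte gene PTPRC (688 to 788 CPM). PTPRC was at 80.9 to 152 CPM in MV4-11. In KG-1a FLT3, CD33 and LYZ did not exceed 1.33 CPM and MEIS1 was at 0, against 85.2 to 104 CPM of MEIS1 in MV4-11. Of the other myeloid list genes, SPI1 was at 219 to 280 CPM in MV4-11 and 5.86 to 7.81 CPM in KG-1a. CEBPA was at 193 to 292 and 58.2 to 88.5 CPM in that order. HOXA9 was at 7.11 to 9.40 and 22.3 to 27.8 CPM, and MPO at 8.01 to 13.0 and 0.0943 to 2.16 CPM. KIT was at 2.55 to 6.58 and 3.39 to 7.21 CPM, and CD14 did not exceed 0.660 CPM in either line. The T cell genes CD3D (174 to 264 CPM) and CD3E (22.2 to 78.3 CPM) were present in KG-1a and at 0 in MV4-11, and EPCAM, CDH1, KRT19 and COL1A2 were at 0 in both lines. The summed level of 16 markers of other cell types was 26.0 to 33.9 CPM over the MV4-11 groups and 305 to 312 CPM in KG-1a untreated at 24 h, 221 to 229 CPM with 8CA and 295 to 359 CPM with 8AA. The part of these markers in the results below was not tested.

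The lines differed most in DNMT3B and TET1, which KG-1a expressed and MV4-11 expressed little. Levels between genes are compared here as CPM per kilobase of exon length (RPKM) in the 4 untreated libraries of a line, 2 at each time, as mean ± SD. In MV4-11 the maintenance pair came first, with UHRF1 at 98.5 ± 2.24 RPKM and DNMT1 at 84.5 ± 2.67 RPKM (n = 4 each). TET3 followed at 11.5 ± 0.372, DNMT3A at 6.11 ± 0.573, TET2 at 2.65 ± 0.274, DNMT3B at 2.56 ± 0.283 and TET1 at 0.0840 ± 0.0221 RPKM. In that order only TET2 (2.34 to 2.90 RPKM) and DNMT3B (2.21 to 2.80 RPKM) overlapped between neighbours. In KG-1a the order was DNMT1 at 91.1 ± 1.49 RPKM, DNMT3B at 70.9 ± 1.59, UHRF1 at 40.8 ± 1.30, TET3 at 10.8 ± 0.816, TET2 at 4.80 ± 0.125, TET1 at 2.52 ± 0.0982 and DNMT3A at 2.24 ± 0.113 RPKM. No neighbours overlapped there, the closest being TET1 (2.41 to 2.64 RPKM) and DNMT3A (2.08 to 2.33 RPKM). DNMT3B was thus the second of the 7 genes in KG-1a and the sixth in MV4-11.

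**Figure D1:**
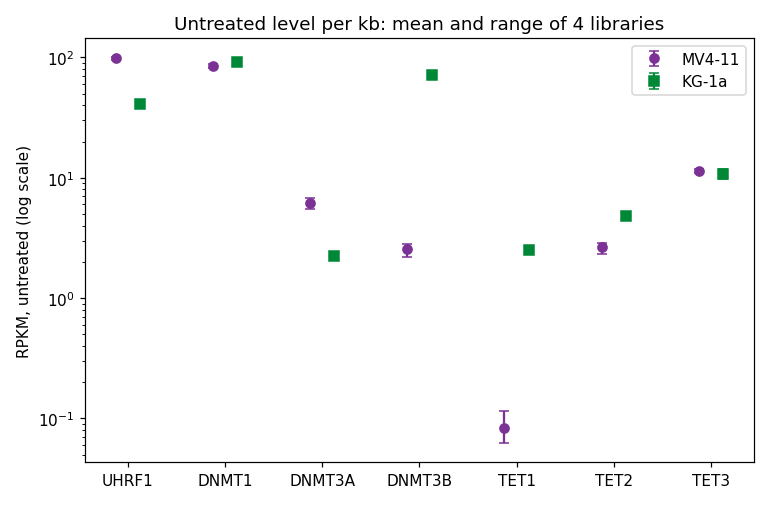
Untreated level of each gene in RPKM on a log scale, as the mean (point) and range (bar) of the 4 untreated libraries of MV4-11 and of KG-1a. DNMT3B (2.56 against 70.9 RPKM) and TET1 (0.0840 against 2.52 RPKM) lie far apart between the lines, and TET3 (11.5 against 10.8 RPKM) lies close.

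In 1 fit of all 24 libraries, all 7 genes passed the test between the untreated lines at an adjusted p below 0.05, as did 87.4% of 14055 genes. Log2 fold changes are given throughout with the standard error of edgeR's quasi-likelihood fit and p-values adjusted by Benjamini-Hochberg over all genes tested. MV4-11 was lower than KG-1a in DNMT3B by a log2 fold change of -4.79 (SE 0.04) (adjusted p = 3.54e-30), in TET1 by -4.90 (SE 0.12) (adjusted p = 9.25e-22) and in TET2 by -0.86 (SE 0.06) (adjusted p = 5.62e-12). MV4-11 was higher in DNMT3A by 1.44 (SE 0.06) (adjusted p = 1.11e-17) and in UHRF1 by 1.27 (SE 0.03) (adjusted p = 4.27e-22). The remaining differences were small. DNMT1 differed by -0.11 (SE 0.03) (adjusted p = 0.00119), a call lost under upper-quartile scaling (adjusted p = 0.0966) and without a filter on low counts (adjusted p = 0.133). TET3 differed by 0.09 (SE 0.04) (adjusted p = 0.0348) and was not called when any of 5 libraries was left out (MV4-11 8 h B, MV4-11 24 h A or B, KG-1a 8 h B or KG-1a 24 h B, adjusted p up to 0.178) or with scaling by library size only (adjusted p = 0.987). Line and culture cannot be told apart in this comparison.

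Between 8 h and 24 h without treatment, 1 of the 7 genes changed in MV4-11 and none in KG-1a, where 5.54% and 4.45% of all genes tested were called. In KG-1a, edgeR gave 1 gene (TET3) at an unadjusted p below 0.05 and the Wald test of DESeq2 called 0. The gene in MV4-11 was TET2, at 34.9 and 37.1 CPM at 8 h and 42.5 and 43.2 CPM at 24 h, a log2 fold change of 0.25 (SE 0.06) (adjusted p = 0.0324). This call was lost when any of its 4 libraries was left out (adjusted p up to 0.209) and by the Wald test (adjusted p = 0.0966). Treated groups were therefore compared with untreated cells of the same time point.

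Against untreated cells, UHRF1, DNMT1 and DNMT3B were lower and TET2 and DNMT3A were higher wherever they passed the test. All 7 genes could be tested in both lines, so that 8 comparisons gave 56 tests. The 8CA and 8AA comparisons of a line and time shared the same 2 untreated libraries, so the 8 comparisons are not independent. Of these, 18 were called lower and 15 higher. In MV4-11 at 8 h, 2 of 7 genes were called with 8CA and 4 with 8AA, where 10.4% and 29.2% of the 12800 genes tested were called. At 24 h, 6 of 7 were called with 8CA and 4 with 8AA, beside 43.9% and 29.1% of all genes. In KG-1a at 8 h, none was called with 8CA and 6 with 8AA, beside 0.881% and 34.7% of 12711 genes. At an unadjusted p below 0.05, edgeR gave 1 gene with 8CA at 8 h in KG-1a, DNMT3B, which the Wald test of DESeq2 called. At 24 h, 5 were called with 8CA and 6 with 8AA, beside 47.4% and 51.9%. With 8AA at 24 h in KG-1a, 6 genes were called without the 8AA replicate A and 4 without the 8AA replicate B, beside 54.3% and 51.4% of all genes. The count of 7 genes is small, and nothing is read from these shares beyond the values.

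The directions were mixed in each comparison with calls. In MV4-11 at 24 h, 8CA lowered 3 genes and raised 3, beside 22.7% lower and 21.2% higher of all genes, and 8AA lowered 3 and raised 1, beside 15.3% and 13.9%. In KG-1a at 24 h, 8CA lowered 2 and raised 3, beside 24.0% and 23.4%, and 8AA lowered 3 and raised 3, beside 26.6% and 25.4%. At 8 h, 8AA lowered 3 and raised 1 in MV4-11, beside 15.6% and 13.6%, and lowered 3 and raised 3 in KG-1a, beside 18.0% and 16.7%. With 8CA at 8 h, 1 gene fell and 1 rose in MV4-11, beside 5.77% and 4.58%. The median log2 fold change of the 7 genes ran from -0.30 (MV4-11, 8CA, 24 h) to 0.13 (MV4-11, 8AA, 24 h), while that of all genes was at most 0.0134. The split of all calls depended on scaling. With scaling by library size only, the share of calls that were higher went from 44.2% to 61.7% and from 46.6% to 61.2% in MV4-11 at 8 h (8CA and 8AA), from 48.2% to 58.9% and from 47.6% to 63.8% at 24 h, and from 48.1% to 58.2% and from 48.8% to 64.5% in KG-1a with 8AA (8 h and 24 h). The directions of the members' calls stayed as given under each scaling tried.

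**Figure D2:**
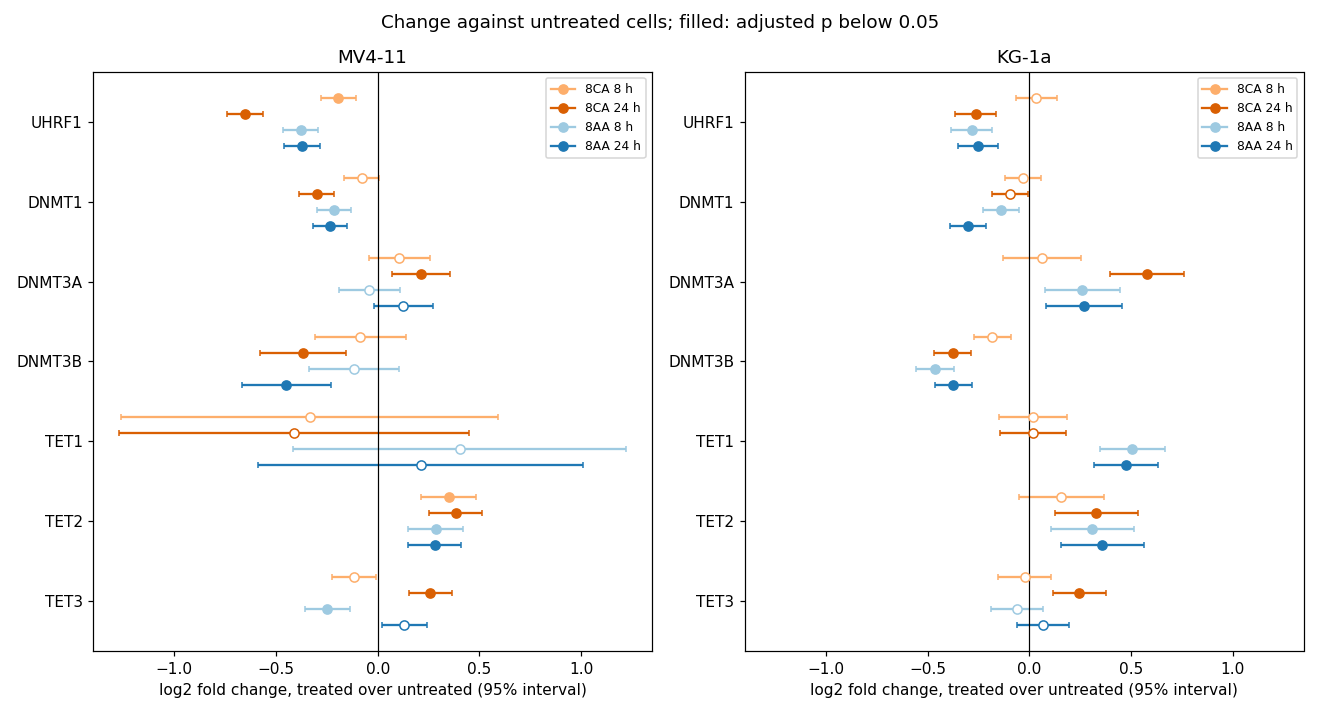
Log2 fold change of each gene against untreated cells of the same time, with 95% intervals, in MV4-11 (left) and KG-1a (right) for 8CA and 8AA at 8 h and 24 h. Filled points passed an adjusted p below 0.05, and UHRF1 with 8CA at 24 h in MV4-11 (-0.65) and DNMT3A with 8CA at 24 h in KG-1a (0.58) stand farthest from 0 among them.

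UHRF1, the reader of hemimethylated CpG, was lower in 7 of the 8 comparisons. The deposited table places it on chromosome 19 from 4909510 to 4962165 on the plus strand. Gene positions are given as deposited, and none of the 7 genes shares its start or end with GRCh38.p14, the build of the RefSeq sequences above. At 8 h in MV4-11 it was at 418 and 396 CPM untreated (replicates A and B), 353 and 359 CPM with 8CA and 311 and 315 CPM with 8AA. At 24 h it was at 414 and 408 CPM untreated, 264 and 259 CPM with 8CA and 314 and 321 CPM with 8AA. No groups of one time overlapped, and 8AA gave the lowest level at 8 h and 8CA at 24 h. The change was -0.19 (SE 0.04) with 8CA at 8 h (adjusted p = 0.00763) and -0.38 (SE 0.04) with 8AA (adjusted p = 8.43e-06). At 24 h it was -0.65 (SE 0.04) with 8CA (adjusted p = 1.39e-08), where the level fell by 36.4%, and -0.37 (SE 0.04) with 8AA (adjusted p = 1.18e-05), where it fell by 22.8%. The call with 8CA at 8 h was lost without the untreated replicate A (adjusted p = 0.0678) and in a fit of only those 4 libraries (adjusted p = 0.0509). In these bulk samples, fewer cells that express a gene and less RNA of it per cell cannot be told apart.

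KG-1a started from a lower level of UHRF1 and fell less with 8CA. At 8 h it was at 177 and 173 CPM untreated, 179 and 179 CPM with 8CA and 142 and 145 CPM with 8AA, so that only the 8AA libraries lay below the untreated ones. After 24 h the gene was at 184 and 188 CPM untreated, 158 and 152 CPM with 8CA and 162 and 150.1 CPM with 8AA. Both drugs then lay below untreated cells and overlapped each other. With 8CA at 8 h no change was detected (0.03, SE 0.05, 95% interval -0.07 to 0.13, adjusted p = 0.830). The changes were -0.28 (SE 0.05) with 8AA at 8 h (adjusted p = 0.000268), -0.26 (SE 0.05) with 8CA at 24 h (adjusted p = 0.000278) and -0.25 (SE 0.05) with 8AA at 24 h (adjusted p = 0.000309). The last ran from -0.31 to -0.20 with 1 library left out (adjusted p up to 0.00602). Between the lines, the 24 h change with 8CA was lower in MV4-11 by -0.37 (SE 0.06) (adjusted p = 0.000223).

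DNMT1, the methyltransferase that copies the pattern, had a log2 fold change nearer 0 than that of UHRF1 in each of the 4 comparisons in MV4-11, a difference between genes that was not tested. The table places it on chromosome 19 from 10244022 to 10305755 on the minus strand. In MV4-11 at 8 h it was at 508 and 504 CPM untreated, 473 and 485 CPM with 8CA and 432 and 439.6 CPM with 8AA, and at 24 h at 539 and 524, 430.3 and 434 and 441 and 463 CPM in the same order. Every treated library lay below both untreated libraries of its time. Its change was -0.08 (SE 0.04) with 8CA at 8 h, which was not called (adjusted p = 0.233), and -0.21 (SE 0.04) with 8AA (adjusted p = 0.000910). After 24 h the change was -0.30 (SE 0.04) with 8CA (adjusted p = 2.61e-05) and -0.23 (SE 0.04) with 8AA (adjusted p = 0.000455).

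In KG-1a, DNMT1 fell with 8AA and did not pass the test with 8CA. At 8 h it was at 599.7 and 579.9 CPM untreated, 574 and 579 CPM with 8CA and 536 and 535 CPM with 8AA, and at 24 h at 594 and 608, 568 and 559 and 502 and 473 CPM. The 8AA libraries were the lowest at both times, and no treated library reached the untreated range. The change with 8AA was -0.14 (SE 0.04) at 8 h (adjusted p = 0.0163) and -0.30 (SE 0.04) at 24 h (adjusted p = 2.01e-05), where the level fell by 18.9%. The 8 h call was lost without the untreated replicate A or either 8AA library (adjusted p up to 0.128), while at 24 h the change ran from -0.35 to -0.26 when any 1 library was left out. With 8CA it was -0.03 (SE 0.04) at 8 h (adjusted p = 0.811) and -0.09 (SE 0.04) at 24 h (adjusted p = 0.0767), where a fit of only those 4 libraries called it (adjusted p = 0.00259).

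**Figure D3:**
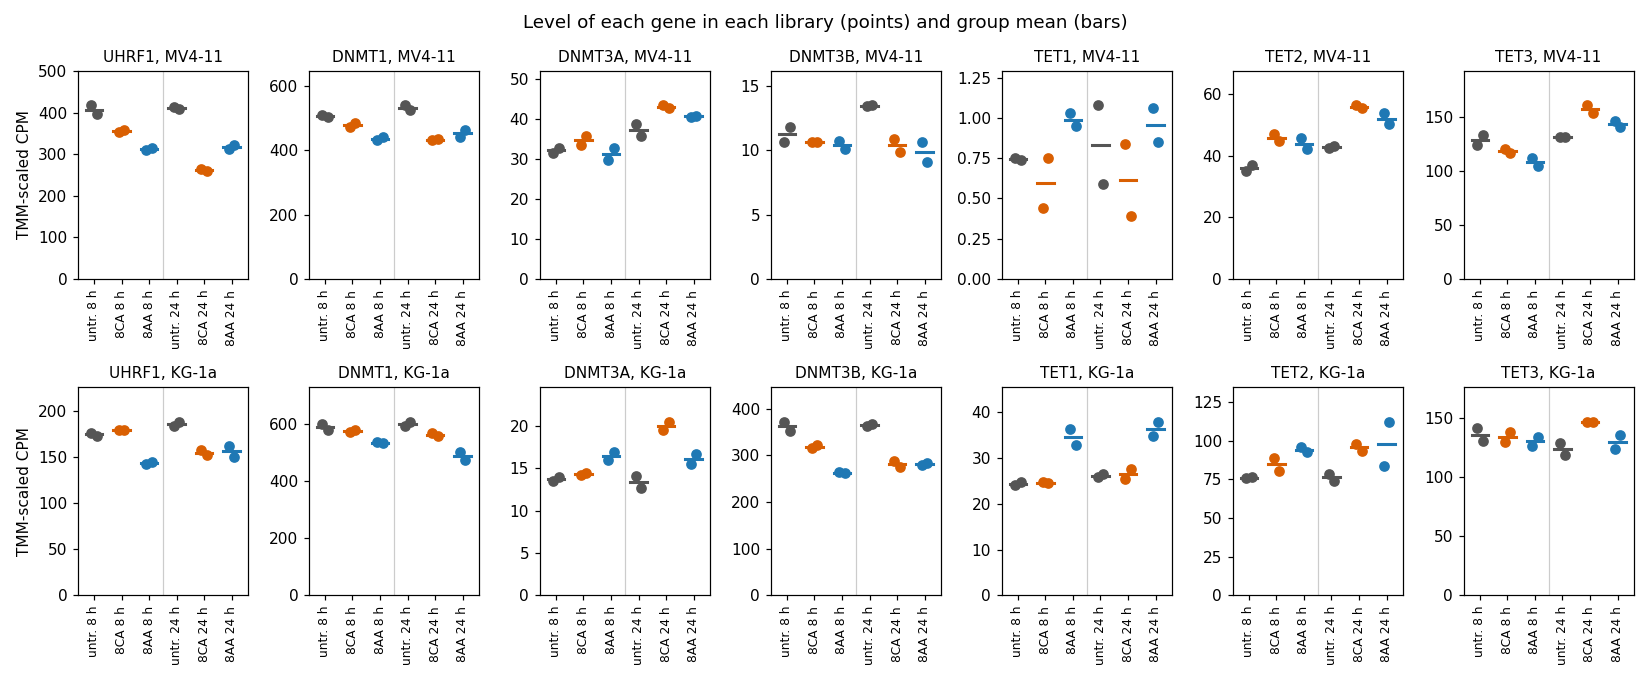
TMM-scaled CPM of the genes in every library (points) with the group mean (bars), for untreated, 8CA and 8AA cells at 8 h (left of the grey line) and 24 h (right) in each line. UHRF1 in MV4-11 at 24 h shows 3 levels, at 408 to 414 CPM untreated, 314 to 321 CPM with 8AA and 259 to 264 CPM with 8CA.

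Genes of DNA replication and S phase moved with UHRF1 and DNMT1 in MV4-11. A list of 30 such genes was all tested in both lines. In MV4-11 it had 8 genes lower and 1 higher with 8CA at 8 h, 21 and 0 with 8AA at 8 h, 28 and 0 with 8CA at 24 h, and 29 and 0 with 8AA at 24 h. Of all genes, 5.77%, 15.6%, 22.7% and 15.3% were called lower. The median log2 fold change of the list was -0.05, -0.27, -0.51 and -0.40 in those comparisons. Its order over the 4 groups, with 8CA at 8 h nearest 0 and 8CA at 24 h farthest, was that of DNMT1 too. At 24 h the summed level of the list was 6232 to 6328 CPM untreated, 4291 to 4419 CPM with 8CA and 4633 to 4833 CPM with 8AA. Examples at 24 h were CDC6, which loads the replicative helicase (-0.71 with 8CA, adjusted p = 4.52e-08), and CCNE1, the cyclin that drives entry into S phase (-0.88, adjusted p = 1.40e-07).

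In KG-1a the list and the maintenance pair did not always move alike. With 8AA at 8 h, 5 S phase genes were lower and 8 higher, with a median of 0.02, in cells where UHRF1 (-0.28), DNMT1 (-0.14) and DNMT3B (-0.46) were called lower. Of all genes, 18.0% were called lower and 16.7% higher there, and nothing is read from the 5 and 8 beyond the values. The summed level of the list was 6255 to 6445 CPM untreated and 6520.2 to 6723 CPM with 8AA. At 24 h with 8CA the list had 22 genes lower and 1 higher (median -0.32), beside 24.0% and 23.4% of all genes. With 8AA it had 20 and 3 (median -0.21), beside 26.6% and 25.4%. Without the 8AA replicate A or B the last counts were 22 and 3 (median -0.31) or 18 and 4 (median -0.17). With 8CA at 8 h, 0 were lower and 0 higher, beside 0.181% and 0.700% of all genes. The part of a changed share of cells in S phase in the fall of UHRF1, DNMT1 and DNMT3B was not tested.

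**Figure D4:**
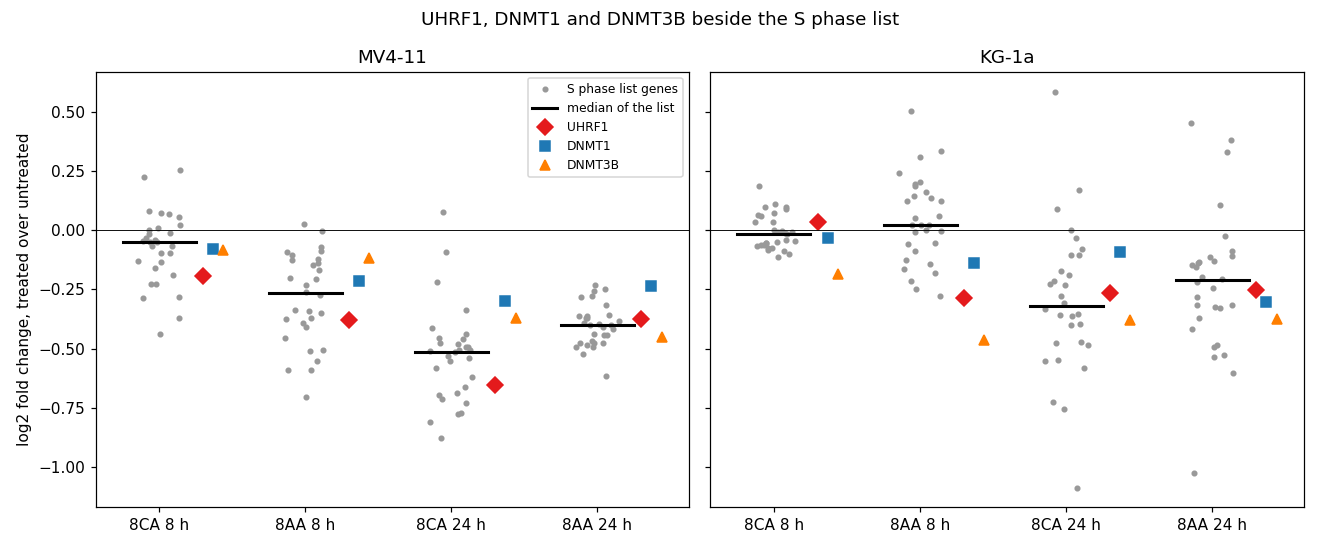
Log2 fold change against untreated cells of UHRF1, DNMT1 and DNMT3B beside the 30 genes of the S phase list in MV4-11 (left) and KG-1a (right), for each drug and time. With 8AA at 8 h in KG-1a the list centres near 0 (median 0.02) while the 3 named genes lie below 0 (-0.28, -0.14 and -0.46).

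The methyltransferases of new sites moved in opposite directions, with DNMT3B lower and DNMT3A higher. DNMT3B lies on chromosome 20 from 31350191 to 31397162 on the plus strand as deposited. In KG-1a, where its level was high, it was at 372 and 352 CPM untreated at 8 h, 315 and 323 CPM with 8CA and 264 and 261 CPM with 8AA. At 24 h it was at 362 and 368 CPM untreated, 287 and 275 CPM with 8CA and 280.4 and 283 CPM with 8AA. All treated libraries lay below the untreated ones at both times, and the drugs overlapped each other at 24 h only. Its change was -0.46 (SE 0.04) with 8AA at 8 h (adjusted p = 1.43e-06), where the level fell by 27.5%. At 24 h it was -0.38 (SE 0.04) with 8CA (adjusted p = 4.37e-06) and -0.37 (SE 0.04) with 8AA (adjusted p = 3.24e-06), the latter from -0.40 to -0.36 with 1 library left out (adjusted p up to 0.000167). With 8CA at 8 h it was -0.18 (SE 0.04), just short of the threshold (adjusted p = 0.0596), and it was called there in 5 of the other settings tried, with no filter on low counts, by the Wald test of DESeq2, with the replicate letter as a block and in fits of 4 or all 24 libraries.

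In MV4-11 DNMT3B had 191 to 298 counts per library. It was at 10.6 and 11.8 CPM untreated at 8 h, 10.6 and 10.6 CPM with 8CA and 10.7 and 10.1 CPM with 8AA, and at 13.4 and 13.5, 10.9 and 9.89 and 10.6 and 9.04 CPM at 24 h. Only at 24 h did both treated groups stand clear of the untreated libraries. The changes there were -0.37 (SE 0.10) with 8CA (adjusted p = 0.00724), which was lost without the 8CA replicate B (adjusted p = 0.0699), and -0.45 (SE 0.10) with 8AA (adjusted p = 0.00389). At 8 h they were -0.08 (SE 0.10) and -0.12 (SE 0.10), with adjusted p of 0.673 and 0.433.

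DNMT3A, on chromosome 2 from 25455830 to 25565459 on the minus strand as deposited, rose in 4 of the 8 comparisons. In KG-1a it was at 14.1 and 12.7 CPM untreated at 24 h, 19.6 and 20.5 CPM with 8CA and 15.6 and 16.7 CPM with 8AA, without overlap, and 8CA gave the highest level. Its change with 8CA was 0.58 (SE 0.09) (adjusted p = 5.55e-05), a rise of 49.3%. With 8AA at 24 h it was 0.27 (SE 0.09) (adjusted p = 0.0186), a call lost without the untreated replicate B or the 8AA replicate B (adjusted p up to 0.171), by the Wald test of DESeq2 (adjusted p = 0.0908) and in a fit of only those 4 libraries (adjusted p = 0.0720). At 8 h in KG-1a the levels were 13.5 and 14.0 CPM untreated, 14.2 and 14.5 CPM with 8CA and 15.9 and 17.0 CPM with 8AA, and again no groups overlapped. The change with 8AA was 0.26 (SE 0.09) (adjusted p = 0.0293), lost without any of its 4 libraries (adjusted p up to 0.175) and by the Wald test of DESeq2 (adjusted p = 0.151). With 8CA it was 0.06 (SE 0.09) (adjusted p = 0.844).

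In MV4-11, DNMT3A was at 31.5 and 32.8 CPM untreated at 8 h, 33.5 and 35.9 CPM with 8CA and 29.6 and 32.8 CPM with 8AA, and at 38.8 and 35.6, 43.4 and 42.8 and 40.6 and 40.6 CPM at 24 h. The treated libraries were the higher ones at 24 h, whereas 8AA overlapped untreated cells at 8 h. The change was called with 8CA at 24 h only, at 0.21 (SE 0.07) (adjusted p = 0.0177). That call was lost without the untreated replicate B or either 8CA library (adjusted p up to 0.174) and by the Wald test (adjusted p = 0.0553). The other changes in MV4-11 were 0.11 (SE 0.07) with 8CA at 8 h, -0.04 (SE 0.07) with 8AA at 8 h and 0.13 (SE 0.07) with 8AA at 24 h, with adjusted p of 0.377, 0.691 and 0.177.

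Among the TET dioxygenases, TET2 was above 0 in all 8 comparisons and was called higher in 7. It lies on chromosome 4 from 106067032 to 106200960 on the plus strand as deposited. In MV4-11 it was at 34.9 and 37.1 CPM untreated at 8 h, 46.9 and 44.8 CPM with 8CA and 45.7 and 42.1 CPM with 8AA, and at 42.5 and 43.2, 56.2 and 55.5 and 53.7 and 50.2 CPM at 24 h. Every treated library lay above both untreated libraries of its time. The changes with 8CA were 0.35 (SE 0.06) at 8 h (adjusted p = 0.00314) and 0.38 (SE 0.06) at 24 h (adjusted p = 0.000115). With 8AA they were 0.28 (SE 0.06) at 8 h (adjusted p = 0.00325) and 0.28 (SE 0.06) at 24 h (adjusted p = 0.00306), and the latter call was lost without the 8AA replicate A (adjusted p = 0.0602).

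In KG-1a, TET2 was at 75.6 and 76.7 CPM untreated at 8 h, 89.0 and 80.8 CPM with 8CA and 95.8 and 92.9 CPM with 8AA. Its level after 24 h was 78.5 and 74.0 CPM untreated, 98.0 and 93.6 CPM with 8CA and 83.7 and 112 CPM with 8AA. The treated libraries lay above the untreated ones at both times, and the 8AA pair at 24 h, whose replicates differed most over all genes, was the widest. Its change was 0.36 (SE 0.10) (adjusted p = 0.00544), which became 0.13 to 0.56 when a library was left out and was not called without the untreated replicate B or the 8AA replicate B (adjusted p up to 0.0674). With 8CA at 24 h it was 0.33 (SE 0.10) (adjusted p = 0.0107), lost without the untreated replicate B or the 8CA replicate A (adjusted p up to 0.0916). At 8 h it was 0.31 (SE 0.10) with 8AA (adjusted p = 0.0207), lost without any of its 4 libraries (adjusted p up to 0.106), and 0.16 (SE 0.10) with 8CA (adjusted p = 0.535).

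TET3, on chromosome 2 from 74213531 to 74335302 on the plus strand as deposited, changed direction between the times in MV4-11. At 8 h it was at 124 and 134 CPM untreated, 121 and 117 CPM with 8CA and 112 and 105 CPM with 8AA, all treated libraries being lower. By 24 h the levels were 131 and 131 CPM untreated, 161 and 153 CPM with 8CA and 147 and 141 CPM with 8AA, all treated libraries being higher. It fell with 8AA at 8 h (-0.25, SE 0.05, adjusted p = 0.00201) and rose with 8CA at 24 h (0.26, SE 0.05, adjusted p = 0.000685). The values -0.12 (SE 0.05) with 8CA at 8 h (adjusted p = 0.170) and 0.13 (SE 0.05) with 8AA at 24 h (adjusted p = 0.0640) did not pass. The latter was called higher in 6 of the 9 other settings tried, with library size only, with upper-quartile scaling, with at least 10 counts in every library, with the replicate letter as a block and in fits of 4 or all 24 libraries (adjusted p of 0.0189 to 0.0499). The difference between the 24 h and the 8 h change was 0.38 (SE 0.07) with 8CA (adjusted p = 0.00246) and 0.38 (SE 0.07) with 8AA (adjusted p = 0.00964). That with 8AA was not called without MV4-11 untreated 8 h replicate B, untreated 24 h replicate B or 8AA 24 h replicate A (adjusted p up to 0.0594).

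In KG-1a, TET3 was at 141 and 131 CPM untreated at 8 h, 129.5 and 138 CPM with 8CA and 127 and 134 CPM with 8AA, and at 129 and 119, 147 and 147 and 124 and 136 CPM at 24 h. Only the 8CA libraries at 24 h stood clear of the untreated ones. The change there was 0.25 (SE 0.06) (adjusted p = 0.00366), lost without the untreated replicate B (adjusted p = 0.0688). The other changes in KG-1a were -0.02 (SE 0.06) and -0.06 (SE 0.06) at 8 h (8CA and 8AA) and 0.07 (SE 0.06) with 8AA at 24 h, with adjusted p of 0.916, 0.473 and 0.379. The value with 8AA at 24 h ran from -0.003 to 0.13 with 1 library left out, without a call, and was called with library size only (0.16, adjusted p = 0.0427).

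TET1, on chromosome 10 from 70320117 to 70454239 on the plus strand as deposited, rose with 8AA in KG-1a at both times. At 8 h it was at 24.0 and 24.7 CPM untreated, 24.8 and 24.5 CPM with 8CA and 36.4 and 32.9 CPM with 8AA. By 24 h TET1 was at 25.8 and 26.5 CPM untreated, 25.4 and 27.6 CPM with 8CA and 34.9 and 38.0 CPM with 8AA. The 8AA libraries were the highest at both times, and the 8CA libraries overlapped the untreated range. The change with 8AA was 0.51 (SE 0.07) at 8 h (adjusted p = 9.53e-05) and 0.48 (SE 0.07) at 24 h (adjusted p = 6.32e-05), or 1.42-fold and 1.39-fold. At 24 h it ran from 0.41 to 0.53 with 1 library left out (adjusted p up to 0.00238). With 8CA it was 0.02 (SE 0.08) (95% interval -0.15 to 0.18) at 8 h and 0.02 (SE 0.08) (95% interval -0.15 to 0.18) at 24 h, with adjusted p of 0.961 and 0.863. In MV4-11 the 12 libraries held only 9 to 24 counts of TET1. No change was detectable at that depth, and the 95% intervals ran, for example, over -0.42 to 1.22 with 8AA at 8 h and -1.27 to 0.45 with 8CA at 24 h.

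The compounds were compared directly at the same dose and time, in 28 tests of the 7 genes over 4 comparisons, of which 9 were called. In KG-1a at 8 h, 3 of 7 genes differed, beside 30.4% of all genes. UHRF1 was lower with 8AA than with 8CA by -0.32 (SE 0.05) (adjusted p = 0.000128) and DNMT3B by -0.28 (SE 0.04) (adjusted p = 0.000179). TET1 was higher with 8AA by 0.49 (SE 0.07) (adjusted p = 0.000158). At 24 h, 4 differed, beside 42.0%. TET1 was again higher with 8AA, by 0.46 (SE 0.07) (adjusted p = 0.000135), and DNMT1 was lower by -0.21 (SE 0.04) (adjusted p = 0.000902). With 1 library left out these ran from 0.40 to 0.52 and from -0.25 to -0.17. DNMT3A was lower with 8AA by -0.31 (SE 0.08) (adjusted p = 0.00625), which was lost without the 8CA replicate B (adjusted p = 0.0561). TET3 was lower by -0.18 (SE 0.06) (adjusted p = 0.0255), lost without either 8CA library or the 8AA replicate A (adjusted p up to 0.105). This call also depended on scaling, being lost with library size only (-0.11, adjusted p = 0.171) and upper-quartile scaling (-0.14, adjusted p = 0.0693). By 24 h no difference was detected in UHRF1 (0.01, SE 0.05, 95% interval -0.09 to 0.11, adjusted p = 0.877) or DNMT3B (0.004, SE 0.04, 95% interval -0.09 to 0.10, adjusted p = 0.951), so that differences of more than about 0.11 lay outside both intervals. With 1 library left out they ran from -0.05 to 0.06 and from -0.03 to 0.04. TET2 in the same comparison was 0.03 (SE 0.09) (adjusted p = 0.832) and rested on single libraries, being -0.20 without the 8AA replicate B (adjusted p = 0.00749) and 0.23 without the 8AA replicate A (adjusted p = 0.00200).

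In MV4-11, UHRF1 was the gene that differed between the compounds, with opposite signs at the times. It was lower with 8AA at 8 h (-0.19, SE 0.04, adjusted p = 0.0127), beside 6.66% of all genes called, and higher with 8AA at 24 h (0.28, SE 0.04, adjusted p = 0.000211), beside 21.2%. The 8 h call was lost without any of its 4 libraries (adjusted p up to 0.0872), while the 24 h difference was called each time. Beside these, 18 S phase genes were lower and 0 higher with 8AA than with 8CA at 8 h, and 1 lower and 12 higher at 24 h. DNMT1 was just short of the threshold at 8 h (-0.14, SE 0.04, adjusted p = 0.0548), and was called with library size only (adjusted p = 0.0435) and with the replicate letter as a block (adjusted p = 0.0161). At 24 h it was 0.06 (SE 0.04) (95% interval -0.02 to 0.15, adjusted p = 0.276).

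**Figure D5:**
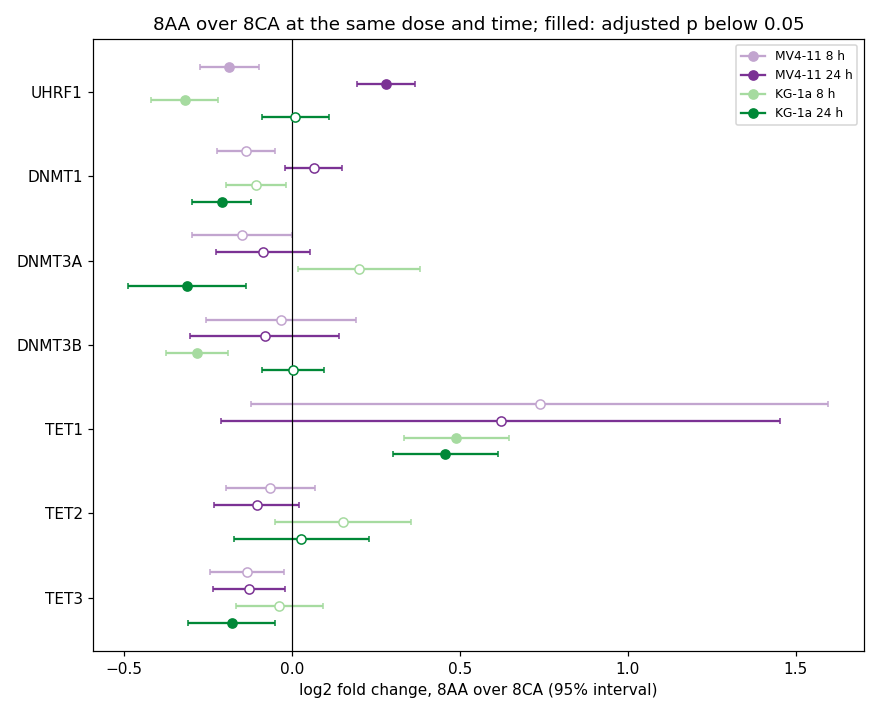
Log2 fold change of 8AA over 8CA for each gene with 95% intervals, in each line at 8 h and 24 h, filled where the adjusted p was below 0.05. UHRF1 in MV4-11 lies on the left of 0 at 8 h (-0.19) and on the right at 24 h (0.28), and TET1 in KG-1a lies on the right at both times (0.49 and 0.46).

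The change at 24 h differed from that at 8 h for 8 of 28 tests over the genes. With 8CA it differed for UHRF1, DNMT1 and TET3 in MV4-11 (3 of 7, beside 16.3% of all genes) and for UHRF1, DNMT3B, DNMT3A and TET3 in KG-1a (4 of 7, beside 23.9%). With 8AA it differed for TET3 in MV4-11 (1 of 7, beside 4.63%) and for none in KG-1a (beside 18.3%). The change of the lines differed for UHRF1, DNMT1 and DNMT3A with 8CA at 24 h (3 of 7, beside 11.2%) and for DNMT3B with 8AA at 8 h (1 of 7, beside 11.1%). None was called with 8CA at 8 h (1.15% of all genes) or with 8AA at 24 h (22.3%). In the comparisons without a called gene, edgeR gave at an unadjusted p below 0.05 DNMT1 (1 gene) for KG-1a with 8AA between the times, UHRF1 (1 gene) for the lines with 8CA at 8 h and 0 genes for the lines with 8AA at 24 h, and the Wald test of DESeq2 called 0 in all 3.

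Most partners of DNMT1 and UHRF1 at the replication fork were called lower with 8CA at 24 h in both lines. Of 8 such genes, 6 were lower and 1 higher with 8CA at 24 h in MV4-11, beside 22.7% and 21.2% of all genes. Under 8AA 5 were lower and 0 higher, beside 15.3% and 13.9%. The counts for KG-1a at 24 h were 5 and 0 with 8CA, beside 24.0% and 23.4%. With 8AA they were 3 and 1, beside 26.6% and 25.4%, and nothing is read from these 8AA counts beyond the values. The 3 lower genes were USP7, HELLS (-0.25, adjusted p = 0.0134) and PCNA (-0.12, adjusted p = 0.0442). Without the 8AA replicate A or B, HELLS was at -0.13 or -0.38 and PCNA at -0.19 or -0.05. The median log2 fold change of the list at 24 h was -0.20 and -0.25 in MV4-11 and -0.19 and -0.07 in KG-1a (8CA and 8AA). The last median was -0.05 or -0.02 without the 8AA replicate A or B. With 8AA at 8 h the counts were 4 and 0 in MV4-11, beside 15.6% and 13.6%, but 1 and 5 in KG-1a, beside 18.0% and 16.7%. With 8CA at 8 h they were 1 and 0 in MV4-11, beside 5.77% and 4.58%, and none in KG-1a, beside 0.181% and 0.700%. PCNA, the sliding clamp that DNMT1 binds, changed by -0.49 (SE 0.04, adjusted p = 1.87e-07) with 8CA in MV4-11 and by -0.32 (SE 0.05, adjusted p = 5.63e-05) in KG-1a at 24 h, and it was higher with 8AA at 8 h in KG-1a (0.13, SE 0.05, adjusted p = 0.0458). USP7, a deubiquitinase that stabilises DNMT1 and UHRF1, was the partner lower in KG-1a with 8AA at 8 h (-0.37, SE 0.04, adjusted p = 7.68e-06), and at 24 h with 8AA it changed by -0.42 (SE 0.04, adjusted p = 6.74e-07) there and by -0.28 (SE 0.05, adjusted p = 0.000315) in MV4-11. HELLS, a chromatin remodeller needed for methylation, and LIG1, the ligase that joins Okazaki fragments, were lower with 8CA at 24 h in both lines, HELLS by -0.21 (SE 0.08, adjusted p = 0.0454) and -0.26 (SE 0.08, adjusted p = 0.0125) and LIG1 by -0.46 (SE 0.05, adjusted p = 2.22e-06) and -0.28 (SE 0.05, adjusted p = 0.000346) in MV4-11 and KG-1a.

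Genes that act with the TET enzymes moved in both directions. Of 15 genes for TET cofactors and for repair of oxidised cytosine, 14 were tested in each line. With 8CA at 24 h, 5 were lower and 3 higher in MV4-11, against 6 lower and 1 higher for KG-1a. With 8AA at 24 h the counts were 3 and 2 in MV4-11 against 5 and 4 in KG-1a (5 and 4 or 6 and 4 without the 8AA replicate A or B). In either direction 8 and 5 of the 14 were thus called in MV4-11 and 7 and 9 in KG-1a (8CA and 8AA), beside 43.9%, 29.1%, 47.4% and 51.9% of all genes, and shares this close to those of all genes are no result about the list. Its median log2 fold change was -0.08 and -0.04 in MV4-11 and -0.04 and -0.09 in KG-1a (8CA and 8AA). TDG, the glycosylase that removes oxidised methylcytosine, was lower in all 4 comparisons at 24 h, by -0.26 (SE 0.06, adjusted p = 0.00141) and -0.31 (SE 0.06, adjusted p = 0.000856) in MV4-11 and by -0.59 (SE 0.05, adjusted p = 4.30e-07) and -0.61 (SE 0.05, adjusted p = 1.71e-07) in KG-1a (8CA and 8AA). OGT, the enzyme that adds N-acetylglucosamine to proteins and binds TET enzymes, was higher in all 4, by 0.62 (SE 0.05, adjusted p = 1.69e-07), 0.45 (SE 0.05, adjusted p = 1.24e-05), 0.72 (SE 0.05, adjusted p = 6.29e-08) and 0.39 (SE 0.05, adjusted p = 2.50e-05) in the same order. WT1, a transcription factor that recruits TET2, was lower in all 4, from -0.66 (SE 0.07, adjusted p = 9.47e-06) with 8AA in MV4-11 to -0.18 (SE 0.06, adjusted p = 0.0216) with 8CA in KG-1a. NEIL1, another repair glycosylase, was higher in MV4-11 (0.70, SE 0.20, adjusted p = 0.00891 with 8CA and 0.74, SE 0.20, adjusted p = 0.0111 with 8AA). In KG-1a with 8AA it was not called (-0.16, adjusted p = 0.750), and was at 0.06 or -0.38 without the 8AA replicate A or B. Its mean absolute change over the 4 comparisons was 0.589.

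Of 8 genes for proteins that bind methylated CpG or belong to their families, 2 were lower and 3 higher with 8CA at 24 h in MV4-11, 1 and 2 with 8AA, 2 and 1 with 8CA in KG-1a, and 1 and 4 with 8AA (2 and 4 or 1 and 3 without the 8AA replicate A or B). These are 5, 3, 3 and 5 of 8 genes, beside 43.9%, 29.1%, 47.4% and 51.9% of all genes, and are likewise no result about the list. Its median was 0.09 and -0.01 in MV4-11 and 0.08 and 0.20 in KG-1a (8CA and 8AA). MBD2, a reader that recruits deacetylases, was lower in all 4 (from -0.17, SE 0.05, adjusted p = 0.0135 with 8CA in MV4-11 to -0.31, SE 0.05, adjusted p = 8.98e-05 with 8AA in KG-1a). ZBTB33, a zinc finger reader also called Kaiso, rose in MV4-11 (0.90, SE 0.08, adjusted p = 6.63e-07 with 8CA and 0.43, SE 0.08, adjusted p = 0.00121 with 8AA), while in KG-1a it was 0.08 (SE 0.08, adjusted p = 0.457) and 0.18 (SE 0.08, adjusted p = 0.0821). The latter was 0.30 and called without the 8AA replicate A (adjusted p = 0.000689) and 0.04 without replicate B (adjusted p = 0.641). Its relatives ZBTB4 and ZBTB38 were higher with 8AA at 24 h in KG-1a (0.30, SE 0.07, adjusted p = 0.00202 and 0.25, SE 0.09, adjusted p = 0.0278), and the call of ZBTB38 was lost without either 8AA library (adjusted p up to 0.0590).

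The methionine cycle makes the SAM that DNMT enzymes use, and 9 of its 11 listed genes were tested in each line. At 24 h, none was lower and 3 were higher with 8CA in MV4-11, none and 2 with 8AA, 2 and none with 8CA in KG-1a, and 6 and 2 with 8AA (6 and 3 or 6 and 1 without the 8AA replicate A or B). In either direction 3, 2, 2 and 8 of the 9 were called, beside 43.9%, 29.1%, 47.4% and 51.9% of all genes. The median of the list was 0.06 and 0.002 in MV4-11 and 0.04 and -0.20 in KG-1a (8CA and 8AA). MAT2A, which makes SAM, was lower at 8 h in MV4-11 (-0.36, SE 0.04, adjusted p = 8.00e-05 with 8CA and -0.41, SE 0.04, adjusted p = 3.75e-06 with 8AA) and did not pass at 24 h (-0.06, SE 0.04, adjusted p = 0.238 and 0.002, SE 0.04, adjusted p = 0.983). In KG-1a it was lower at 8 h (-0.24, SE 0.04, adjusted p = 0.00863 and -0.41, SE 0.04, adjusted p = 2.35e-06) and at 24 h (-0.23, SE 0.04, adjusted p = 0.000235 and -0.43, SE 0.04, adjusted p = 3.99e-07). AHCY, which clears the S-adenosylhomocysteine left by methyltransferases, was lower at 24 h in KG-1a (-0.15, SE 0.05, adjusted p = 0.0335 with 8CA and -0.46, SE 0.06, adjusted p = 5.16e-06 with 8AA), and not in MV4-11 (-0.07, SE 0.05, adjusted p = 0.331 and -0.06, SE 0.05, adjusted p = 0.395). AHCYL2, a relative of AHCY, was higher with 8AA in both lines (0.25, SE 0.09, adjusted p = 0.0470 and 0.29, SE 0.09, adjusted p = 0.0152), and GNMT, which consumes SAM to methylate glycine, was higher with 8CA in MV4-11 (1.06, SE 0.34, adjusted p = 0.0196) and with 8AA in KG-1a (0.67, SE 0.23, adjusted p = 0.0212), where the call was lost without the 8AA replicate B (0.41, adjusted p = 0.191).

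For the other genes of these lists named as called with 8AA at 24 h in KG-1a, the direction stayed without either 8AA library. Such a fit holds 1 library of this group and takes its spread from the other groups, so only the changes are given. The changes then were -0.44 to -0.40 for USP7, -0.66 to -0.56 for TDG, 0.29 to 0.47 for OGT, -0.21 to -0.17 for WT1, -0.36 to -0.26 for MBD2, 0.22 to 0.37 for ZBTB4, -0.45 to -0.41 for MAT2A, -0.54 to -0.38 for AHCY and 0.28 to 0.30 for AHCYL2. DAZL, a germline gene described next, was at 0.44 to 0.73.

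Most of the listed germline genes, whose promoters are methylated in most somatic cells, stayed at or near 0. Of 22 such genes, 20 were in the table, 11 had 0 counts in all 24 libraries and 15 stayed under 10 counts in each. Only 2 could be tested in each line, HORMAD1 and TEX15 in MV4-11 and DAZL and TDRD9 in KG-1a, and these were expressed without treatment too. At 24 h, DAZL was -0.22 (SE 0.13, adjusted p = 0.164) with 8CA and 0.59 (SE 0.12, adjusted p = 0.000697) with 8AA, and TDRD9 was -0.39 (SE 0.07, adjusted p = 0.000192) and -0.05 (SE 0.06, adjusted p = 0.502). HORMAD1 was 0.23 (SE 0.07, adjusted p = 0.0103) and 0.08 (SE 0.07, adjusted p = 0.415), and TEX15 0.27 (SE 0.12, adjusted p = 0.0707) and 0.09 (SE 0.12, adjusted p = 0.597). DNA methylation itself was not analysed here.

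The genes most like each member were found by Pearson's r of log2 CPM over the 24 libraries after the mean of each line was subtracted, among 9878 genes, as a description. DNMT1 was closest to SUPT16H (r = 0.932), HPDL (0.931) and SETD3 (0.929), and UHRF1 to SLC16A3 (0.910), CCND3 (0.906) and CHRNA5 (0.900). DNMT3A was closest to TGOLN2 (0.931), KMT2A (0.906) and MED13L (0.898), and DNMT3B to INTS8 (0.896), PKP4 (0.862) and ZDHHC6 (0.861). TET2 was closest to DOPEY1 (0.928), ZNF33A (0.918) and ZNF217 (0.917), TET3 to SRRM2 (0.935), SMG1 (0.900) and RBM26 (0.895), and TET1 to SESN3 (0.705), CEP70 (0.700) and RPS6KC1 (0.697). The libraries share their treatments and untreated controls, so the values of r describe these 24 libraries only.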

How the data were processed

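RNA sequencing libraries of MV4-11 and KG-1a cells, 24 in all, were grouped by line, drug and hours from the sample labels. The authors deposited raw counts of reads per gene with the exon length and position of each gene. The submitters' processing notes name Trimmomatic, STAR 2.6.0, HTSeq 0.11.1 and edgeR, and the builds hg19 and hg38 without their roles. Of 21956 symbols shared with the RefSeq table of GRCh38.p14, 88 (0.401%) had the same start or end, and 0 of the 7 genes did, so deposited positions are not GRCh38 and were never combined with RefSeq positions. Strand use is not given in the sources used here. The genes listed inside a member are MIR1301 (in DNMT3A, at most 1 count in a library) and MIR4747 (in UHRF1, at most 2 counts).

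Genes were filtered with filterByExpr (minimum count 10), scaled by TMM and tested with the quasi-likelihood test of edgeR 4.0.16 in R 4.3.3. Each line's 12 libraries shared a fit in which every group had its own coefficient, and all 24 libraries shared one for differences between lines. Benjamini-Hochberg adjustment ran over all genes tested, at a threshold of 0.05. CPM and RPKM were computed from TMM-scaled library sizes, within a line for treated groups and over all 24 libraries for the untreated levels. Totals of 18633963 to 24520078 counts limit precision for low genes.

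The steps were tested on simulated data. The 7 genes and the gene lists were chosen with earlier results of these data known. Named genes were the 7, up to 4 genes per list by mean absolute change at 24 h among those called, and the 3 most correlated genes per member. Genes of the germline list and CD3D, CD3E, EPCAM and other markers were named to account for their lists. Alternatives were other scalings and filters, the Wald test of DESeq2 1.42.0, other libraries in the fit, a fold threshold, the replicate letter as a block and each library left out in turn. Nothing in the labels ties equal letters, and with 2 replicates the letters were not used as pairs. The correlation of A minus B between groups was -0.117 to 0.161, and 0.132 to 0.159 among the 3 groups of MV4-11 at 8 h. Figures were drawn with matplotlib 3.10.9.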

Additional observations from a re-analysis of the deposited data

Results flagged for a closer look

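These results are tests of a difference between changes, taken with the edgeR quasi-likelihood fit and Benjamini-Hochberg adjustment over all genes. Groups of 2 libraries were not tested for a library that stands apart.

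UHRF1 fell further at 24 h than at 8 h with 8CA, by a further -0.46 (SE 0.06) in MV4-11 (adjusted p = 0.000100) and -0.30 (SE 0.07) in KG-1a (adjusted p = 0.00425). Its 24 h change with 8CA was lower in MV4-11 than in KG-1a by -0.37 (SE 0.06) (adjusted p = 0.000223). These were called with each library left out.

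DNMT1 fell further at 24 h with 8CA in MV4-11, by -0.22 (SE 0.06) (adjusted p = 0.0146), a call lost without the MV4-11 untreated 8 h B, 8CA 8 h B, untreated 24 h A or 8CA 24 h A library (adjusted p up to 0.0771). Its 24 h change with 8CA was lower in MV4-11 than in KG-1a by -0.18 (SE 0.06) (adjusted p = 0.0366), lost without any of the 8 libraries compared (adjusted p up to 0.147).

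DNMT3A with 8CA in KG-1a was higher at 24 h than at 8 h by 0.52 (SE 0.12) (adjusted p = 0.00691). Its 24 h change with 8CA was lower in MV4-11 than in KG-1a by -0.34 (SE 0.11) (adjusted p = 0.0409). That call was lost without MV4-11 untreated 24 h A, MV4-11 8CA 24 h A or B, KG-1a untreated 24 h B or KG-1a 8CA 24 h B (adjusted p up to 0.220) and by the Wald test of DESeq2 (adjusted p = 0.0939).

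DNMT3B with 8CA in KG-1a was lower at 24 h than at 8 h by -0.19 (SE 0.06) (adjusted p = 0.0305), lost without 6 of its 8 libraries, all but untreated 8 h A and 8CA 24 h A (adjusted p up to 0.144) and under upper-quartile scaling (-0.15, adjusted p = 0.0875). Its 8 h change with 8AA differed between the lines by 0.39 (SE 0.10) (adjusted p = 0.00960), the fall being in KG-1a, and was lost without MV4-11 untreated 8 h A or MV4-11 8AA 8 h A (adjusted p up to 0.0826) and with no filter on low counts (adjusted p = 0.0535).

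TET3 changed upward from 8 h to 24 h with 8CA in MV4-11 (0.38, SE 0.07, adjusted p = 0.00246), with 8AA in MV4-11 (0.38, SE 0.07, adjusted p = 0.00964) and with 8CA in KG-1a (0.27, SE 0.09, adjusted p = 0.0331). For 8AA in MV4-11 the call needed untreated 8 h B, untreated 24 h B and 8AA 24 h A (adjusted p up to 0.0594 when one of them was left out). The call in KG-1a was lost without untreated 8 h A, 8CA 8 h A, untreated 24 h B or either 8CA 24 h library (adjusted p up to 0.174).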

How the results depend on the processing

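Over the members and comparisons, leaving out 1 library in turn gave 896 fits. Each leaves 1 library in a group and takes its spread from the others, so a kept call does not show agreement of replicates. In the 324 of called values the direction stayed, 250 kept the call and 74 lost it. In the 572 of values not called, 566 stayed so and 6 gained a call. The sign turned in 72, of which 71 were not called in either fit. The other was TET2, 8AA against 8CA in KG-1a at 24 h, at -0.20 without KG-1a 8AA 24 h replicate B and 0.23 without replicate A. Calls were lost in 5 of 153 results by the Wald test of DESeq2, in 3 of 161 with upper-quartile scaling, in 2 of 161 each with library size only and no filter, and in 2 of 56 in the fit of 4 libraries. These totals include results that were not called and could lose no call. Of the 56, for example, 33 were called in the main fit. None of these settings turned a direction that was called, and the cause of the lost calls was not tested.

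The number of the 7 genes called moved by more than 1.5 times as follows, and smaller moves are not listed, such as 5 in place of 6 by the Wald test for MV4-11 with 8CA at 24 h and KG-1a with 8AA at both times. A minimum absolute log2 fold change of 0.5 left 0 genes for MV4-11 with 8CA at 8 h, with 8AA at 8 h and with 8AA at 24 h and for KG-1a with 8AA at 24 h, and 1 for MV4-11 with 8CA at 24 h, KG-1a with 8AA at 8 h and KG-1a with 8CA at 24 h, by construction. For KG-1a with 8CA at 8 h, 1 gene (DNMT3B) in place of 0 was called with no filter, by the Wald test of DESeq2, with the replicate block, in the fit of 4 libraries and in that of all 24. The fit of 4 libraries called 1 in place of 2 for MV4-11 with 8CA at 8 h. For 8AA against 8CA in MV4-11, 2 in place of 1 were called at 8 h with library size only and with the replicate block, and at 24 h with the replicate block. The Wald test called 0 in place of 1 for untreated MV4-11 at 24 h against 8 h. Between the lines, no filter called 0 in place of 1 with 8AA at 8 h, and library size only and at least 10 counts in every library each called 1 in place of 0 with 8AA at 24 h.

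With 1 library left out, the counts were 1 to 2 (of 2) for MV4-11 with 8CA at 8 h, 3 to 4 (of 6) for KG-1a with 8AA at 8 h, 3 to 5 (of 5) for KG-1a with 8CA at 24 h, 0 to 0 (of 1) and 2 to 5 (of 4) for 8AA against 8CA in MV4-11 at 8 h and in KG-1a at 24 h, 0 to 1 (of 1) for the times in MV4-11 with 8AA, 2 to 3 (of 4) and 0 to 2 (of 0) for the times in KG-1a with 8CA and 8AA, 1 to 2 (of 3) for the lines with 8CA at 24 h, 0 to 1 (of 1) and 0 to 1 (of 0) for the lines with 8AA at 8 h and 24 h, and 0 to 0 (of 1) for untreated MV4-11 between the times.

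The replicate letters are a number only. As a block they changed 4 of 161 results of members, all from not called to called. These were TET3 with 8AA at 24 h, DNMT1 at 8 h and TET3 at 24 h for 8AA against 8CA, all in MV4-11, and DNMT3B with 8CA at 8 h in KG-1a. The block raised the count over all genes from 853 to 1369 (8AA against 8CA, MV4-11, 8 h), 593 to 1123 (times, MV4-11, 8AA), 709 to 1321 (untreated MV4-11 between times) and 112 to 205 (KG-1a, 8CA, 8 h). Exchanging the letters of the untreated 24 h group, a choice made after seeing the data, gave 1912 in place of 709 over all genes and 2 in place of 1 among the members. The fold threshold left 158, 808, 1456 and 780 of 1325, 3742, 5619 and 3726 genes in MV4-11 and 28, 1083, 1728 and 2377 of 112, 4415, 6021 and 6600 in KG-1a (8CA and 8AA at 8 h, then at 24 h). No filter gave 952 (593), 1122 (709) and 272 (112) genes in those comparisons, 936 (566) for untreated KG-1a between times and 246 (162) for the lines with 8CA at 8 h. The fit of 4 libraries gave 591 (1325) and 354 (112) for 8CA at 8 h in MV4-11 and KG-1a, that of all 24 gave 184 (112), and the Wald test gave 556 (853) and 469 (709). Library size only moved the median log2 fold change of all genes by up to 0.0945 (KG-1a, 8AA, 24 h).

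The depth limits TET1 in MV4-11 (9 to 24 counts), and 2 libraries per group limit all calls of small changes.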
